A study of Mus musculus with 6 samples.

Results

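The 9 genes Dnmt1, Dnmt3a, Dnmt3b, Uhrf1, Tet1, Tet2, Tet3, Mbd2 and Mbd3 write, remove or read methylation of cytosine in DNA, and they are described here in differentiating mouse neuroblastoma cells. They were taken by symbol from a table of 40413 genes, and all 9 had enough counts to be tested among 13705 genes. N2A-A5 is a line of Neuro-2a cells, which come from a mouse neuroblastoma. The labels call it an acceptor line and do not say whether it is a single clone. RNA sequencing compared 3 libraries of undifferentiated cells (0 h), grown with 10% fetal bovine serum and 10 µg/mL blasticidin and with no treatment, with 3 libraries of cells kept for 96 h with 10 µM retinoic acid, 1% serum and no blasticidin. Serum, retinoic acid, blasticidin and time changed together and cannot be told apart. The design text calls the libraries biological replicates without saying what was repeated, so the p-values measure the spread between these libraries.

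DNA methylation in mammals sits mostly on cytosines of CpG pairs and is copied after each round of replication. UHRF1 binds hemimethylated CpG behind the replication fork and recruits DNMT1, which methylates the new strand, whereas DNMT3A and DNMT3B methylate unmethylated sites de novo. TET1, TET2 and TET3 oxidise 5-methylcytosine, the first step of its removal. MBD2 binds methylated CpG and MBD3, its close relative, binds it weakly or not at all. Each of the 2 sits in a separate form of the NuRD complex, which combines nucleosome remodelling with histone deacetylation. In neurons DNMT3A is known for its high abundance, and DNMT1 and UHRF1 are best known from dividing cells.

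Dnmt1 and Uhrf1 fell the most of the 9. Their promoters are shown because they alone, of the 8 members that could be searched, held an E2F-type motif. Mbd2 had no promoter sequence and was not searched. E2F factors drive many genes of S phase. The sequences are from RefSeq (build GRCm38.p6, whereas the counts name mm39), matched by symbol, and hold the 250 bases before an annotated start, 5′ to 3′ on the gene's strand. Capitals mark matches to TTTNNCGC or its reverse complement. In Dnmt1 the capitals are 2 overlapping matches on the reverse strand. Uhrf1 is shown from 1 of its 2 annotated starts and Dnmt1 from 1 of its 3, in each case the start with more CpG. In both genes this start is the most downstream one. The bases shown lie after the other annotated starts and may be part of transcripts that begin there.
Dnmt1, chr9:20952624-20952873, minus strand: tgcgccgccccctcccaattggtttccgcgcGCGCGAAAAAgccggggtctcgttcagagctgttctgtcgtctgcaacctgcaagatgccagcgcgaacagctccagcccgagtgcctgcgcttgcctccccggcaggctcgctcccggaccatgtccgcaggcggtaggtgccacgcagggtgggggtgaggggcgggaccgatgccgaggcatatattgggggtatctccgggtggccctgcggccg
Uhrf1, chr17:56304063-56304312, plus strand: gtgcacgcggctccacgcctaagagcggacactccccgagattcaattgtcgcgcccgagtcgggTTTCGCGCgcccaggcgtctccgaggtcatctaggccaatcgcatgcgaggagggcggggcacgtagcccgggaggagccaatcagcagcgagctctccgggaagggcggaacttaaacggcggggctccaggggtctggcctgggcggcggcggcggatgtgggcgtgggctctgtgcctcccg

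Further matches lay elsewhere in the 300-base windows of these genes (250 bases before a start and 50 after it). Dnmt1 had another that began 34 bases into the transcript of the same start, and Uhrf1 had one that began 56 bases before its other start.
Dnmt1, chr9:20952575-20952598, minus strand: gggcagcgTTTGGCGCgggctgtg
Uhrf1, chr17:56303273-56303296, plus strand: ccacttgcTTTCTCGCttcccgcc

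The motif was present in 1698 of 32851 promoters of this length (5.17%, both strands searched). By gene, 1024 of 10152 tested genes with a promoter in the table held it (10.1%), as did 11 of 24 DNA replication genes and 2 of the 8 members found there. Both windows shown at length above were rich in CpG, with 33 CpG pairs each in the 300 bases, against a median of 7 over all promoters. Tet2 had the most CpG pairs of the 8 members searched (57 in 300 bases). No match to the retinoic acid response elements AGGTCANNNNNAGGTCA and AGGTCANNAGGTCA was found in the members' windows, and each of these was present in only 3 of all 32851 promoters. The single repeat AGGTCA was present in 3 of the 8 members (Dnmt3a, Tet1 and Uhrf1), and it did not overlap the E2F-type matches. By gene, 14.9% of the 10152 tested genes held it, and by promoter 16.3%. A match describes the letters only, and which start these cells use was not measured.

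Each library held between 16833672 and 20932343 counts. Levels are in CPM, the usual depth-scaled count, with library sizes scaled with TMM factors, a scaling that assumes that most genes do not change. The predicted gene Gm26917 took 18.7% to 22.7% of counts at 0 h and 28.7% to 31.7% at 96 h, and protein-coding genes 64.0% to 68.0% and 50.0% to 53.3%. Against the labelled cell type, 11 of 12 markers of sympathetic neuroblasts passed the filter on low counts, with a summed level of 1750 to 1790 CPM at 0 h and 1170 to 1220 CPM at 96 h. Of these 11, 9 fell and 1 rose, where 28.8% of all tested genes were lower and 28.7% higher. The macrophage markers summed to at most 0.409 CPM in any library, the endothelial to 4.09, the astrocyte to 2.58, the oligodendrocyte and Schwann to 9.0 and the fibroblast to 12.2, with Col3a1, Lum, Aif1, Emcn, Cldn5, Aqp4, Slc1a3 and Olig2 at 0 in all 6. Fibroblast markers summed to 4.28 to 4.77 CPM at 0 h and 10.5 to 12.2 CPM at 96 h, where 2 of 3 tested (Pdgfra and Dcn) rose, and their part in the results below was not tested.

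At an adjusted p under 0.05 (edgeR quasi-likelihood test, Benjamini-Hochberg over all tested genes), Dnmt1, Uhrf1, Dnmt3a, Tet3 and Mbd3 fell. Of the 9 members 5 fell and none rose, and Dnmt3b, Tet1, Tet2 and Mbd2 did not pass. No member rose at an unadjusted p under 0.05, nor with DESeq2 or limma-voom. Among all 13705 genes, 28.8% were lower and 28.7% higher, 57.4% in all. With TMM scaling, the 0 h and 96 h libraries were fully apart for the same 5 members and overlapped for the other 4. By library size only, Dnmt3b, Tet1 and Mbd2 were apart as well (lower at 96 h), and Tet2 still overlapped. The share of all genes apart by library size only was not counted, and the values that follow are with TMM scaling. Over all genes 64.1% were apart, 31.7% lower and 32.4% higher at 96 h. The median log2 fold change was -0.45 over the members and 0.03 over all tested genes. With scaling by library size only, 8 members were lower, Tet1 being the exception, and 29.2% of all calls were higher in place of 49.9%, because that scaling lowered the median of all genes by 0.25 (a shift of -0.25).

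**Figure D1:**
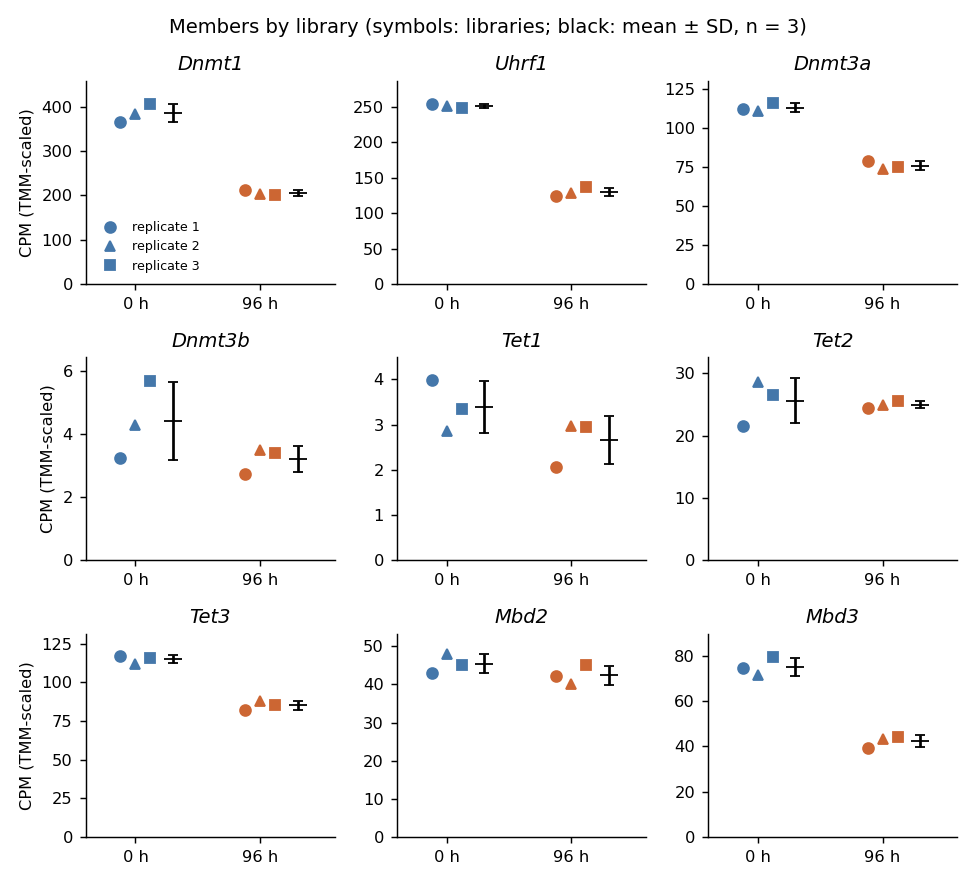
Level of each member (vertical axis, TMM-scaled CPM, from 0) in the 3 libraries at 0 h and the 3 at 96 h, with the mean ± SD of each group in black. With this scaling the groups are apart for Dnmt1, Uhrf1, Dnmt3a, Tet3 and Mbd3 and overlap for Dnmt3b, Tet1, Tet2 and Mbd2.

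The maintenance pair had the largest falls. Dnmt1, the maintenance methyltransferase, was at 366, 384 and 406 CPM in the 0 h libraries (replicates 1, 2 and 3, as in all such series here) and at 213, 202 and 200 CPM in those at 96 h. Each 96 h library was well below the lowest at 0 h, and the group means were 385 ± 20 and 205 ± 7.1 CPM (SD over the n = 3 libraries of a group, here and below). The log2 fold change was -0.91 ± 0.05 (SE, edgeR adjusted p = 3.23e-09), a fall to 53.1% of the 0 h level. Only 4.95% of tested genes had a lower log2 fold change.

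Uhrf1, which recruits DNMT1 to new DNA, was at 254, 252 and 249 CPM at 0 h and at 125, 128 and 137 CPM at 96 h. It was the most even member at 0 h, with a coefficient of variation of 0.957% against 4.61% at 96 h. Its log2 fold change was -0.95 ± 0.05 (edgeR adjusted p = 1.59e-09), a fall to 51.7% of the 0 h level. In bulk RNA, fewer cells that express a gene and less RNA per cell cannot be told apart.

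The proportion of the 2 genes to each other did not pass as changed. Within a library the ratio of Uhrf1 to Dnmt1 counts does not depend on scaling, and it was 0.692, 0.657 and 0.613 at 0 h and 0.587, 0.636 and 0.683 at 96 h. The groups overlapped, with a difference in log2 ratio of -0.04 (exact two-sided permutation p = 0.6, adjusted p = 0.7 over 7 ratios). With 3 libraries against 3 this exact permutation test cannot go below p = 0.1.

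All 30 of a list of DNA replication genes fell beside the pair, where 28.8% of all tested genes were lower. Their median log2 fold change was -0.72, with a range of -1.37 to -0.29. Pcna, the sliding clamp of DNA polymerase, had -1.37 ± 0.05, and the helicase subunits Mcm6 and Mcm2 had -0.96 ± 0.05 and -0.87 ± 0.04. Dnmt1 counts were 31.8%, 33.9% and 36% of the summed Mcm2 to Mcm7 counts at 0 h and 33.5%, 32.2% and 30.3% at 96 h. These values overlapped (difference in log2 ratio -0.08, exact permutation p = 0.4, adjusted p = 0.7). The same share for Uhrf1 was 22%, 22.3% and 22.1% at 0 h and 19.7%, 20.5% and 20.7% at 96 h. Every 96 h library was below every 0 h library for Uhrf1, by -0.12 in log2 ratio (exact permutation p = 0.1, the smallest possible, adjusted p = 0.233). The part of the fall in replication genes in that of Dnmt1 and Uhrf1 was not tested.

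**Figure D2:**
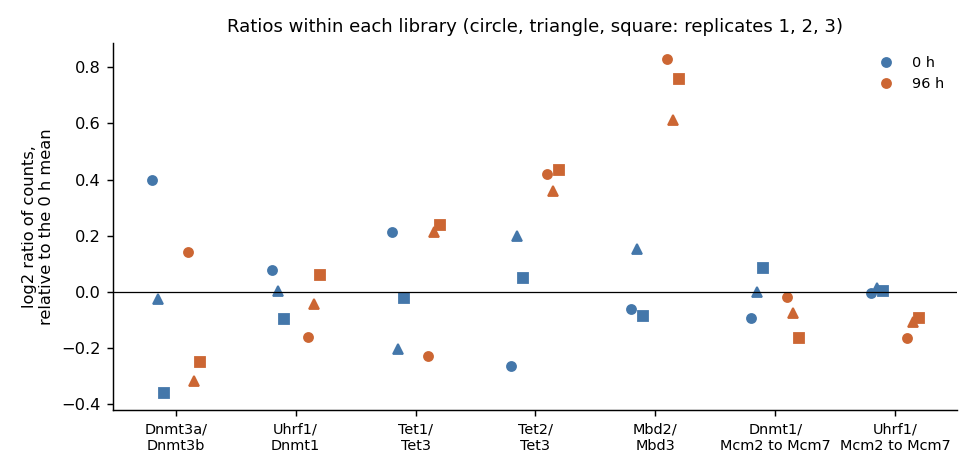
Log2 ratio of the counts of 2 genes, or of a gene and the summed Mcm2 to Mcm7 counts, within each library (vertical axis), relative to the mean of the 0 h libraries. The 96 h libraries stand above those at 0 h for Mbd2/Mbd3 (difference 0.73) and Tet2/Tet3 (0.41), below them for Uhrf1/Mcm2 to Mcm7 (-0.12), and overlap them for the other 4 ratios.

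Of the de novo enzymes Dnmt3a was the abundant one, with 6996 counts over the 0 h libraries against 273 for Dnmt3b. Dnmt3a was at 112, 111 and 116 CPM at 0 h and at 78.9, 73.5 and 74.8 CPM at 96 h. The groups did not overlap, and it fell with a log2 fold change of -0.58 ± 0.05 (edgeR adjusted p = 4.80e-07). Against a fold change of at least 1.5 it did not pass (edgeR glmTreat adjusted p = 0.804).

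Dnmt3b was at 3.25, 4.30 and 5.69 CPM at 0 h and at 2.73, 3.51 and 3.40 CPM at 96 h, from 273 and 162 counts per group. The spread at 0 h, a coefficient of variation of 27.7%, covered most of the 96 h values. The log2 fold change of -0.45 ± 0.25 did not pass (edgeR adjusted p = 0.133), and its 95% interval, -1.14 to 0.23 (4 residual degrees of freedom, as for all intervals here), holds both no change and a fall of the size of Dnmt1. Dnmt3b passed without 0 h replicate 1 (-0.64, edgeR adjusted p = 0.0459) and with library size only (-0.70, 0.0228). Without 0 h replicate 3 its log2 fold change was -0.24 (edgeR adjusted p = 0.435), so leaving out a single library made the fall larger or smaller.

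The ratio of Dnmt3a to Dnmt3b counts was 34.5, 25.7 and 20.4 at 0 h and 28.9, 21.0 and 22 at 96 h. It overlapped between the groups (difference in log2 ratio -0.15, exact permutation p = 0.7, adjusted p = 0.7). Dnmt3c, a rodent copy of Dnmt3b that can share its reads, had 0, 9 and 5 counts at 0 h and 0, 1 and 1 at 96 h. Dnmt3l, a catalytically inactive partner of the de novo enzymes, had 3 counts at 0 h and 7 at 96 h. Neither of these low rows was tested.

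Among the erasers Tet3 fell, and Tet1 and Tet2 did not pass. Tet3 was at 117, 112 and 116 CPM at 0 h and at 82.3, 87.7 and 85.2 CPM at 96 h, with no overlap. Its log2 fold change was -0.43 ± 0.05 (edgeR adjusted p = 5.99e-06), and it did not pass against a fold change of at least 1.5 (edgeR glmTreat adjusted p = 1).

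Tet2, the TET enzyme that lacks a CXXC domain of its own, was at 21.6, 28.6 and 26.6 CPM at 0 h and at 24.4, 25 and 25.6 CPM at 96 h. All 96 h values lay inside the 0 h range, and the log2 fold change was -0.04 ± 0.10 (95% interval -0.31 to 0.23, edgeR adjusted p = 0.766). Its sign turned with upper-quartile factors and without 0 h replicate 2 (0.04 in both), and with library size only it passed as lower (-0.29, edgeR adjusted p = 0.0312). The ratio of Tet2 to Tet3 counts, which needs no scaling, was 0.185, 0.255 and 0.230 at 0 h and 0.297, 0.285 and 0.300 at 96 h. All 96 h libraries were above all 0 h libraries, by 0.41 in log2 ratio (exact permutation p = 0.1, the smallest possible, adjusted p = 0.233).

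Tet1, best known from embryonic stem cells, was the scarcest member. It was at 3.98, 2.85 and 3.34 CPM at 0 h and at 2.06, 2.98 and 2.95 CPM at 96 h, from 208 and 135 counts per group. Values overlapped, and the log2 fold change of -0.34 ± 0.25 (95% interval -1.04 to 0.37) did not pass (edgeR adjusted p = 0.275). Tet1 counts were 3.40%, 2.55% and 2.89% of those of Tet3 at 0 h and 2.51%, 3.40% and 3.46% at 96 h (difference in log2 ratio 0.09, exact permutation p = 0.7, adjusted p = 0.7).

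Of the 2 MBD genes, Mbd3 fell and Mbd2 did not pass. Mbd3 was at 74.6, 71.6 and 79.6 CPM at 0 h and at 39.2, 43.4 and 44.2 CPM at 96 h. It fell to 56.3% of its 0 h level, with a log2 fold change of -0.83 ± 0.07 (edgeR adjusted p = 1.46e-07). Mbd2 was at 43.1, 48.0 and 45.2 CPM at 0 h and at 42.1, 40.0 and 45.0 CPM at 96 h. These overlapped, with a log2 fold change of -0.10 ± 0.07 (95% interval -0.29 to 0.09, edgeR adjusted p = 0.224), and with library size only Mbd2 was lower (-0.35, edgeR adjusted p = 0.00258).

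The ratio of Mbd2 to Mbd3 counts moved from 0.578, 0.671 and 0.568 at 0 h to 1.07, 0.921 and 1.02 at 96 h. The groups did not overlap, and the difference of 0.73 in log2 ratio was the largest of the 7 ratios (exact permutation p = 0.1, the smallest possible, adjusted p = 0.233). At 96 h the summed counts of the 2 genes were equal, 2125 each, against 2828 for Mbd2 and 4649 for Mbd3 at 0 h.

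**Figure D3:**
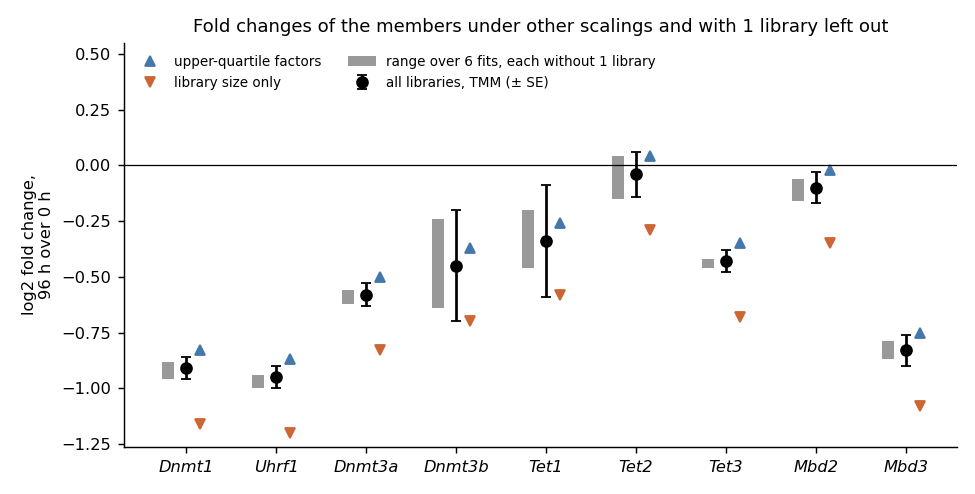
Log2 fold change, 96 h over 0 h (vertical axis), of each member with all libraries and TMM scaling (black, ± SE), its range when each of the 6 libraries is left out (grey), and its value under 2 other scalings (triangles). All members but Tet2 stay below 0 throughout, Mbd2 up to -0.02, and Tet2 reaches 0.04.

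Levels can be compared between genes only per length, here as CPM per kb of the longest coding transcript in GENCODE M21. Uhrf1 (70.2 ± 0.70 CPM per kb) and Dnmt1 (65.6 ± 3.4) led at 0 h, followed by Mbd3 (45.3 ± 2.4), Mbd2 (23.3 ± 1.3), Dnmt3a (11.7 ± 0.27), Tet3 (10.5 ± 0.24), Tet2 (2.79 ± 0.39), Dnmt3b (1.02 ± 0.28) and Tet1 (0.236 ± 0.039). The order was the same at 96 h, where Uhrf1 stood at 36.3 ± 1.7 and Dnmt1 at 34.9 ± 1.2 CPM per kb. Neighbours overlapped in 2 places: Uhrf1 and Dnmt1 at 96 h, and Dnmt3a and Tet3 at 96 h (7.82 ± 0.29 and 7.8 ± 0.25). At 0 h the lowest Uhrf1 library (69.4 CPM per kb) and the highest Dnmt1 library (69.2) were close to each other. With the length of all exons together, the mean of Tet3 was ahead of that of Dnmt3a at both times, and the other ranks were the same. At 0 h the libraries of Tet3 (6.71 to 7.01 CPM per kb) and Dnmt3a (6.67 to 6.97) overlapped by this length. At 96 h they were apart (4.93 to 5.25 and 4.42 to 4.74). Isoform use, which sets the true length, was not measured.

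The 5 genes with the profile nearest to that of Dnmt1 over the 6 libraries were Cdc5l, Eif4a3, Suz12, Ptbp1 and Ddx39b, of 9421 candidates. Likeness was the Euclidean distance between log2 CPM values centred on each gene's 0 h mean, and it ran from 0.0643 for Cdc5l to 0.0983 for Ddx39b. Their log2 fold changes ranged from -0.95 ± 0.07 (Suz12, a subunit of Polycomb repressive complex 2) to -0.88 ± 0.05 (Ptbp1, a repressor of neuronal exons). Uhrf1 ranked 109 by this measure. With 2 groups of 3 libraries, such a ranking mostly reflects the size of the change.

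A further list held 11 tested genes, readers of methylated CpG and relatives of such readers (Mbd5 and Mbd6 among them), called other readers here. Of these, 4 rose and none passed as lower, beside 28.7% and 28.8% over all genes. None was lower at an unadjusted p under 0.05, nor with DESeq2 or limma-voom, although 1 was with library size only. The list's median log2 fold change was 0.23. Zbtb4, a zinc finger reader, rose 2.30-fold, from 2.79 ± 0.20 to 6.46 ± 1.1 CPM (edgeR adjusted p = 2.30e-04), and Zfp57, which guards methylation at imprinted regions, rose 1.96-fold, from 7.49 ± 1.7 to 14.7 ± 0.64 CPM.

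The paralog of Uhrf1, Uhrf2, had a log2 fold change of 0.05 ± 0.08 and did not pass (edgeR adjusted p = 0.632). With library size only, 2 of the 11 were higher and 1 lower, and with upper-quartile factors 8 were higher, so the count of this list turns on the scaling.

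Of 16 tested partners of the writers 9 fell and 2 rose, where 28.8% of all genes were lower and 28.7% higher. The median log2 fold change of the partners was -0.22. Usp7, the deubiquitinase that stabilises UHRF1 and DNMT1, had -0.72 ± 0.05 (edgeR adjusted p = 4.21e-08). Hells, the remodeller that opens chromatin for DNA methylation, had -0.64 ± 0.06, and Cbx5, the heterochromatin protein HP1 alpha, had -0.90 ± 0.04. In the other direction Cdca7, the partner that recruits HELLS, was at 7.33, 8.22 and 6.53 CPM at 0 h and at 12.5, 14.5 and 13.8 CPM at 96 h. It rose 1.85-fold without overlap (edgeR adjusted p = 6.93e-05), while Hells itself fell. The other higher gene, Morc2a (0.19 ± 0.05), lost its call without 96 h replicate 1 (edgeR adjusted p = 0.0571) and had -0.06 with library size only.

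Genes of the base removal that follows TET oxidation, and other eraser partners, had 6 higher, 11 lower and 2 that did not pass, of 19 tested, where 28.7% of all genes were higher and 28.8% lower. Smug1, a glycosylase, rose 3.12-fold, whereas Tdg, the glycosylase that excises the products of TET oxidation, fell with a log2 fold change of -0.29 ± 0.08 (edgeR adjusted p = 0.00551). Gadd45a, a stress gene that has been linked to demethylation, rose 6.07-fold, from 3.51, 3.79 and 4.75 CPM to 23.1, 22.6 and 27.3 CPM. Its relative Gadd45b went from 57, 65 and 39 counts at 0 h to 3, 15 and 10 at 96 h, and passed the filter on low counts through its 0 h libraries, so that its direction was set by that. Gadd45g, of the same family, had a log2 fold change of 0.04 ± 0.16 and did not pass (edgeR adjusted p = 0.823). Idh1, a source of the 2-oxoglutarate that TET enzymes need, rose 2.22-fold, and Idh3a, a subunit of the mitochondrial NAD-dependent enzyme, had -0.71 ± 0.06. The CXXC proteins Cxxc5 (-1.02 ± 0.08) and Cxxc4 (-0.89 ± 0.08), the latter known to bind TET2, fell while Tet2 itself did not pass.

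**Figure D4:**
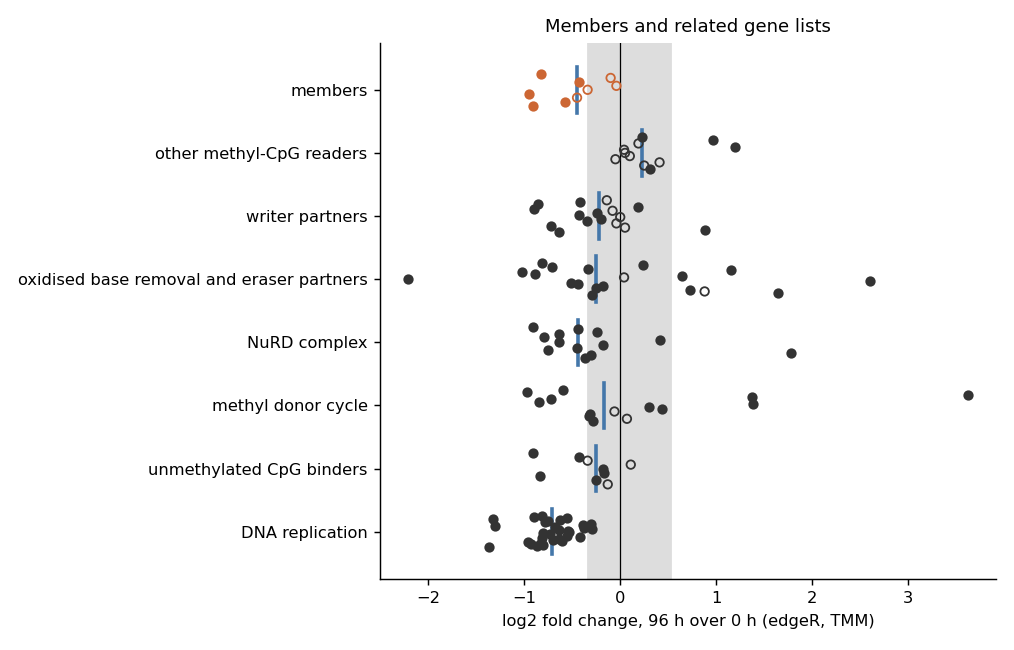
Log2 fold change, 96 h over 0 h (horizontal axis), of the tested genes of each list (rows; filled points passed the edgeR test, open points did not), with the list's median as a vertical line. The grey band is the middle 50% of all tested genes, -0.34 to 0.53, and the medians run from -0.72 (DNA replication) to 0.23 (other readers).

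The NuRD complex, the partner of MBD2 and MBD3, fell in most of its other subunits, 11 of 13 tested. Among all tested genes 28.8% were lower and 28.7% higher. The median log2 fold change of the 13 was -0.44. Cdk2ap1 had -0.91 ± 0.07, and the histone-binding subunits Rbbp4 and Rbbp7 had -0.79 ± 0.05 and -0.64 ± 0.05. The 2 that rose were Mta3 (0.41 ± 0.07) and Chd5, the remodeller subunit known from neurons. Chd5 was at 4.18, 6.60 and 5.80 CPM at 0 h and at 18.3, 19.6 and 19.3 CPM at 96 h, a 3.43-fold rise (edgeR adjusted p = 2.25e-07) with no overlap. Mta3 did not pass with library size only (0.16, edgeR adjusted p = 0.162), and Chd5 did under each scaling tried.

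Proteins that bind unmethylated CpG through a CXXC domain, a list that shares Dnmt1, Tet1 and Tet3 with the members, fell in 6 of 9 and rose in none. Among all tested genes 28.8% were lower and 28.7% higher. The 6 include the members Dnmt1 and Tet3. With upper-quartile factors, and at an adjusted p under 0.01, 4 were lower. None of the 9 was higher at an unadjusted p under 0.05, nor with DESeq2 or limma-voom, and 1 was with upper-quartile factors. Cxxc1, which recruits a histone methyltransferase to CpG islands, had -0.84 ± 0.09. The genes of the methyl donor cycle, which supplies S-adenosylmethionine, counted 5 higher and 7 lower of 14 tested (3 higher and 8 lower with library size only), beside the 28.7% and 28.8% over all genes. Shmt2, a mitochondrial source of one-carbon units, rose 2.58-fold. Nnmt, which consumes the donor to methylate nicotinamide, is among the 5 and had 2, 9 and 5 counts at 0 h and 49, 57 and 56 at 96 h. It passed the filter on low counts through its 96 h libraries, so its direction was set by that. The falls included Amd1 (-0.97 ± 0.07), which decarboxylates S-adenosylmethionine, Mthfd1 (-0.85 ± 0.06) and Mtap (-0.60 ± 0.08).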

How the data were processed

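The table that the authors deposited holds expected counts (estimated counts per gene, not normalised), of which 11.6% are not whole. The tools listed in the submitters' processing notes are Salmon 1.10.1, FastQC 0.12.1 and DESeq2 1.52.0, with mm39 as the build. Their roles, the annotation and the strand setting are not stated there, so reads of overlapping antisense genes may be shared (Dnmt3aos, antisense to Dnmt3a, had 0 counts). Counts were rounded, genes filtered with filterByExpr, libraries scaled with TMM and compared in edgeR 4.0.16 (R 4.3.3) with no covariate. The SE is the size of the log2 fold change divided by the square root of F. The test was checked on simulated data in which far fewer genes changed than passed here. That check does not test the assumption behind the TMM scaling. Ratios used counts plus 0.5. Alternatives were other scalings, filters and thresholds, DESeq2 1.42.0, limma-voom (limma 3.58.1), protein-coding genes alone, a replicate block and leaving out each library. The members and lists were chosen with earlier results of these data known. Named genes were the members, the 3 higher and 3 lower genes of each list with the smallest adjusted p, genes of the ratios and the 5 nearest to Dnmt1. Others (the low rows Dnmt3c and Dnmt3l, Uhrf2, Tdg, Gadd45b, Gadd45g, Zcwpw1 and markers) were chosen after their values were seen. Lists were given no set test. Some genes that this rule takes are left out here.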

Additional observations from a re-analysis of the deposited data

How the results depend on the processing

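Over 17 alternatives for each of 50 genes, 829 of the 850 values kept direction and side of the threshold. Many of these genes were named for their small adjusted p in these data, so their calls were likely to be kept. The adjusted p under 0.01 reuses the main fit, and a gene without a call counts as kept when it fails a stricter test. The total is therefore no measure of how firm the results are. Dnmt1, Uhrf1 and Mbd3 passed as lower in all 17. Dnmt3a and Tet3 lost their calls against a 1.5-fold change alone. With library size only, 8 members were lower, 2409 of all genes were higher, and the higher counts were 2 (other readers, with 1 lower), 1 (writer partners), 1 (NuRD) and 3 (methyl donor cycle), while Morc2a (-0.06) and Asz1 (-0.03) turned. With upper-quartile factors, Tet2 turned (0.04), 8 other readers and 1 CpG binder were higher. With the stricter filter or protein-coding genes alone, 7 other readers were higher. Against a 1.5-fold change, 3 members were lower, 1515 genes higher and 852 lower. The higher and lower counts were then 1 and 2 for writer partners, 3 and 5 for eraser partners, 1 and 3 for NuRD and 3 and 2 for the methyl donor cycle. Other readers had 2 higher, CpG binders 2 lower and replication genes 15 lower.

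Leaving out each library gave 5 to 6 members lower, 1 to 2 writer partners higher, and Tet2 at -0.15 to 0.04. The log2 ratio differences ran from -0.33 to 0.04 (Dnmt3a/Dnmt3b, above 0 without 0 h replicate 1), -0.10 to 0.01 (Uhrf1/Dnmt1, above 0 without 96 h replicate 1) and -0.01 to 0.23 (Tet1/Tet3, below 0 without 0 h replicate 2). The causes were not tested. The deviations of same-numbered libraries showed no clear correlation (-0.01, 0.03 and -0.01). Such correlations, over all genes and 3 libraries per group, cannot show whether same-numbered libraries share an origin. With the replicate block 5 members were lower, 3854 genes higher and 3858 lower. Dnmt3b and Tet1 had the fewest counts of the members, 31 to 109 per library, and the part of depth in their spread was not tested.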

Other observations

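Germline genes, of which several are known to be kept silent by promoter methylation in somatic cells, were followed in a list of 18. Of these, 14 did not pass the filter on low counts, with at most 4 counts in either group, and Sycp3, Slc25a31, Tex101, Hormad1 and Dpep3 had 0 counts in all 6 libraries. The other 4 were higher at 96 h, but Taf7l, Brdt and Zcwpw1 passed the filter through their 96 h libraries, so their direction was set by that. Taf7l, a germ cell relative of the general transcription factor subunit TAF7, had 1, 8 and 5 counts at 0 h and 182, 219 and 214 at 96 h. Its mean was 0.218 ± 0.15 CPM at 0 h and 12.3 ± 0.46 CPM at 96 h. Brdt, a testis bromodomain gene, had 20 and 79 counts per group and Zcwpw1, a meiotic gene, 24 and 64. Asz1 was already at 53.5 ± 0.86 CPM at 0 h and had a log2 fold change of 0.22 ± 0.06 (-0.03 with library size only). DNA methylation was not measured in these libraries.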
